A study of Mus musculus with 8 samples.

Results

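Potassium channel genes were followed across the cell types of cultured mouse islets and across forskolin, Exendin-4 and genotype. The group held every gene in the expression table whose symbol starts with Kcn, apart from Kcnj11, which codes for the pore of the ATP-sensitive channel, and the antisense transcript Kcnq1ot1. This gave 59 of the 17362 genes in the table, classed by symbol prefix. They comprised 24 voltage-gated alpha subunits, 8 voltage-gated auxiliary subunits, 7 inward rectifiers, 9 two-pore domain channels and 1 noncoding transcript, Kcnab3os. The other 10, with the prefixes Kcnma, Kcnmb, Kcnn, Kcnt and Kcnu, formed the class labelled calcium- or sodium-activated. Kcnu1 was placed there by its prefix alone. Islets came from wild type mice (WT) and from mice carrying a whole-body Med14 S983A knock-in, in which the serine of the Mediator subunit Med14 that the allele name gives is replaced by alanine (the mutant below). About 100 hand-picked islets per condition were cultured and left untreated (CON), exposed to the GLP-1 receptor agonist Exendin-4 (Ex-4, 10 nM, 16 h) or exposed to forskolin (FSK, 16 h), a direct activator of adenylyl cyclase whose dose in islets the sources used here do not give. The study lists the Med14 S983A mice as C57BL/6J, and the age, sex and number of mice behind each condition are not stated for the islets in the sources used here. Nuclei were sorted on DAPI, barcoded in plates and read as 8 sublibraries, each of which held nuclei of all 6 conditions.

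Potassium channels set the resting potential of endocrine cells and return the membrane to rest after each action potential. In beta cells closure of the ATP-sensitive channel starts electrical activity, while voltage-gated Kv2 channels, calcium-activated BK and SK channels and two-pore leak channels shape the spikes and bursts that drive calcium entry and insulin release. Inward rectifiers of the GIRK type open when inhibitory G protein-coupled receptors are engaged, as with somatostatin acting on alpha and beta cells.

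Each condition and cell type was 1 pooled column of nuclei, so no value had a replicate. Values are given as counts per 10000 counts in the column (CP10K), and the 95% intervals, exact Poisson for a level and exact conditional binomial for a ratio, cover counting error only. Condition cannot be told apart from the islet preparation or the barcode wells that held it. Column totals ran from 1915006 to 3094377 counts in beta cells, from 269394 to 810127 in alpha cells and from 362410 to 631433 in delta cells, and from 1522 to 159305 in the other 6 cell types. A gene was called higher or lower where the CP10K ratio reached 1.5-fold, among genes with at least 300 counts over the 6 columns of the cell type. That filter kept 24, 14 and 12 of the 59 members in beta, alpha and delta cells, out of 6555, 2322 and 1947 genes. The others are described by their levels. Fewer nuclei of one kind within a column and less RNA per nucleus cannot be told apart in pooled columns.

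The cell type labels were set against marker lists. The 5 beta markers summed to 45.7, 16.9 and 7.58 CP10K in beta, alpha and delta cells, and in alpha cells 13.3 of the 16.9 came from Slc30a8, the zinc transporter of secretory granules, which was at 11 in beta cells. The 5 alpha markers summed to 65.9 CP10K in alpha cells against 2.42 and 2.06 in beta and delta cells. The 4 delta markers summed to 6.16 CP10K in delta cells against 0.0972 and 0.334 in beta and alpha cells, where Ghsr was at 0. Of the 3 ductal markers 2 were in the table, and in ductal cells Spp1 was at 3.89 CP10K (20 counts) and Sox9 at 0, so that label rests on few counts. Of the 4 neuron or Schwann markers 3 were in the table, and their sum in the columns labelled neuron, 3.74 CP10K, was below that in beta cells (6.40) and delta cells (7.75), while the beta markers summed to 20.8 there. The summed markers thus did not set those columns apart as neurons.

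Potassium channel RNA differed by cell type. Summed over the 59 members, it reached 112, 59.7 and 105 CP10K in beta, alpha and delta cells, against 27.4 to 79.4 in the other 6 types. By condition the sums ran from 73.9 to 146 in beta, 46.7 to 91.3 in alpha and 75.8 to 163 in delta cells. In PP cells they ran from 62.8 to 96.9, so these ranges overlapped. The sums are not scaled by gene length, and Kcnip1 alone gave 29.5 of the 112 in beta cells. Of the 59 members, 56, 50 and 54 had at least 1 count in beta, alpha and delta cells. Kcnj13, Kcnj2 and Kcns3 were listed at 0 in beta cells. Between 3 and 16 members were at 0 in every cell type of a condition, which is why no upper limit is given for a 0.

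Because long genes collect more nuclear RNA counts, levels of different genes were compared per 100 kb of gene length. On that scale Kcnh6, an ether-a-go-go related voltage-gated channel, led in beta cells with 10.4 CP10K per 100 kb among the members described, followed by Kcnip1 with 8.04 and Kcnmb2, an inactivating auxiliary subunit of BK channels, with 5.86. Kcnh6 also led in alpha cells, with 21.0 CP10K per 100 kb, ahead of Kcnk16, a two-pore leak channel known from islets, with 13.0. In delta cells, among the members described, Kcnmb2 was at 7.82 CP10K per 100 kb, Kcnk16 at 7.31 and Kcnip1 at 5.39. Kcnb2, the Kv2.2 delayed rectifier, lay at 1.93, 1.01 and 2.03 CP10K per 100 kb in beta, alpha and delta cells.

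**Figure D1:**
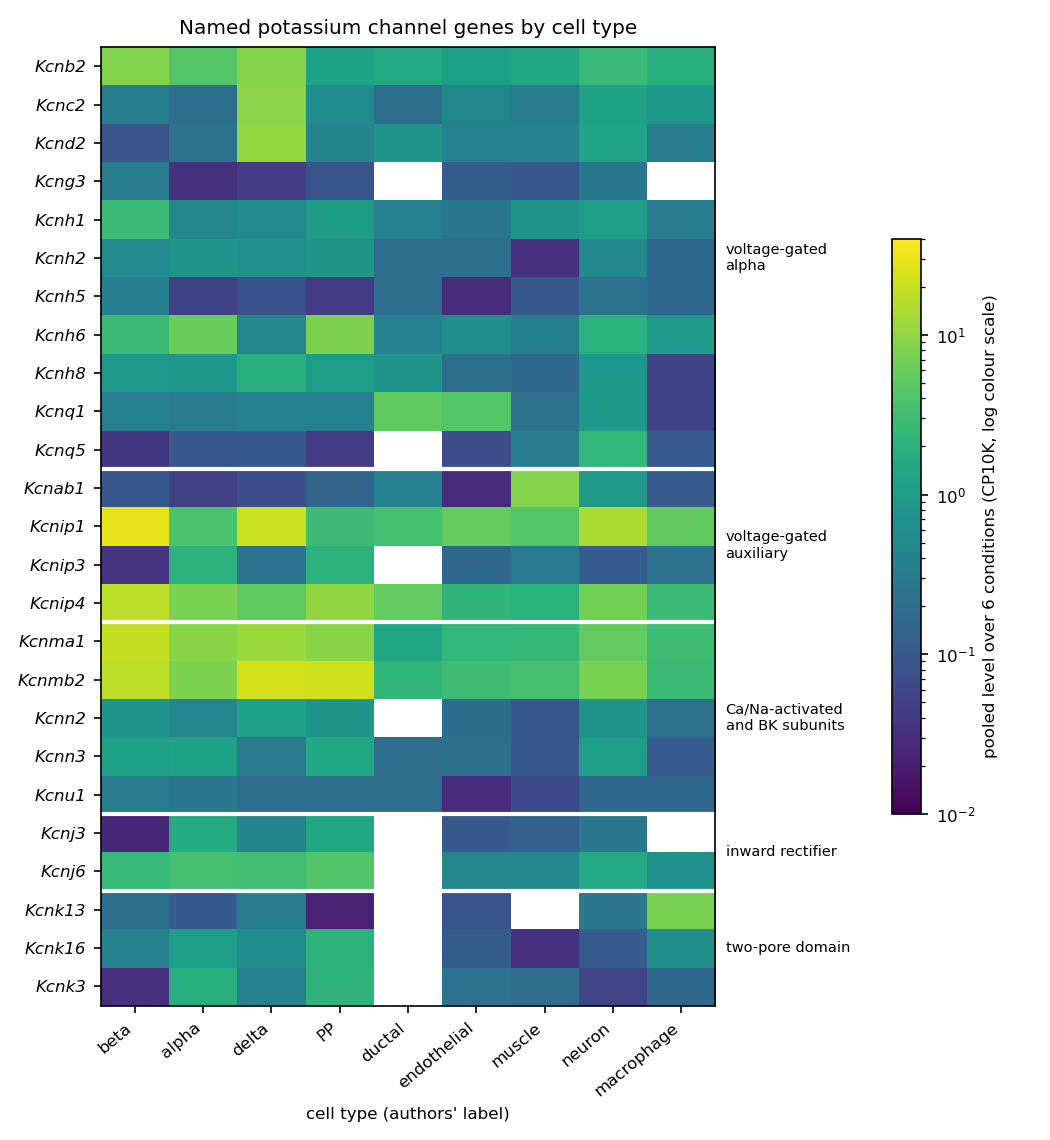
Pooled level over the 6 conditions (CP10K, log colour scale, white for 0 counts) of the 25 named potassium channel genes in the 9 cell types, grouped by role. Each row is to be read across cell types; Kcnd2 and Kcnc2 are brightest in delta cells, Kcnk13 in macrophages and Kcnab1 in muscle.

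A member counted as highest in a cell type if its pooled level was at least 2-fold above both other main endocrine types. It also had to be higher in 6 of 6 conditions. Pooled levels add counts over the 6 conditions, so deeper columns weigh more. In beta cells WT CON held 3012428 counts and mutant CON 1925445, and in alpha cells they held 419293 and 810127. Folds between cell types and their intervals thus also carry this mix of conditions. The criterion held for 5 of 24 members in beta cells, where 5.77% of all kept genes met it. It held for 4 of 14 in alpha cells (4.82% of all) and for 3 of 12 in delta cells (8.37% of all). Members and all genes were kept on their counts in the leading cell type. Of the members named below, Kcnd2, Kcng3, Kcnh1, Kcnh5, Kcnip3, Kcnj3 and Kcnk3 reached 300 counts only in that type. They were thus kept only through the cell type where they are high. In delta cells Kcnd2, the Kv4.2 A-type channel, was at 10.6 CP10K against 0.235 in alpha cells, 44.9-fold higher (interval 36.1 to 56.5), and at 0.0847 in beta cells. Kcnc2, the Kv3.2 channel, was at 9.48 CP10K in delta cells and 0.345 in beta cells, 27.4-fold higher (25.0 to 30.2). Kcnh8 was at 1.91 CP10K in delta cells and 0.884 in beta cells, 2.16-fold higher (1.96 to 2.39). The lowest of the 6 delta columns, 3.51 CP10K for Kcnd2 and 2.93 for Kcnc2, still exceeded the highest of the 12 beta and alpha columns, 0.344 and 0.682.

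Against beta and delta cells, alpha cells stood out by an auxiliary subunit, a leak channel, a GIRK subunit and an ERG channel. Kcnip3, a calcium-binding Kv4 partner also known as DREAM, was at 2.03 CP10K in alpha cells against 0.236 in delta cells, 8.63-fold higher (6.74 to 11.2). Kcnk3, an acid-sensitive two-pore leak channel, was at 1.80 CP10K against 0.387 in delta cells, 4.66-fold higher (3.82 to 5.74). Kcnj3, which codes for GIRK1, was at 1.64 CP10K against 0.407 in delta cells, 4.04-fold higher (3.31 to 4.95), and at 0.0256 in beta cells. Its lowest alpha column, 0.693 CP10K, lay below its highest beta or delta column, 1.13. Kcnh6 was at 5.79 CP10K against 2.85 in beta cells, 2.03-fold higher (1.93 to 2.14), and at 0.437 in delta cells. PP cells, which were not part of that comparison, had levels close to or above those of alpha cells, at 2.04 CP10K for Kcnip3 (1.65 to 2.49), 2.19 for Kcnk3 (1.78 to 2.66), 1.42 for Kcnj3 (1.09 to 1.80) and 7.76 for Kcnh6 (6.99 to 8.61). With the 2 untreated columns alone, 3 members met the criterion in alpha cells.

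The named members that met the criterion in beta cells were voltage-gated alpha or auxiliary subunits. Kcng3, a silent subunit that joins Kv2 channels, was at 0.340 CP10K against 0.0437 in delta cells, 7.78-fold higher (4.51 to 14.7). Kcnh1, an ether-a-go-go channel, was at 2.81 CP10K against 0.548, 5.12-fold higher (4.38 to 6.02), and its relative Kcnh5 was at 0.344 against 0.0807, 4.26-fold higher (2.83 to 6.71). Kcnip4, a Kv4 partner, was at 17.6 CP10K against 7.48 in alpha cells, 2.36-fold higher (2.27 to 2.46). For Kcng3 the lowest beta column, 0.156 CP10K, exceeded the highest alpha or delta column, 0.106. For Kcnh1, Kcnh5 and Kcnip4 it did not, at 0.987 against 1.33, 0.125 against 0.143 and 8.09 against 12.7 CP10K. Kcnip1, the calcium-binding partner with the most counts in beta cells, was at 29.5 CP10K there, 19.8 in delta cells and 3.77 in alpha cells and missed the criterion because delta cells were less than 2-fold lower.

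Each of the other 6 cell types had a member at least 2-fold above beta, alpha and delta cells. Kcnk13, a two-pore channel known from microglia, was at 7.54 CP10K in macrophages (138 counts, interval 6.34 to 8.91) against 0.323 in delta cells. Kcnab1, a beta subunit of Kv1 channels, was at 8.52 CP10K in muscle cells (262 counts, 7.52 to 9.62) against 0.0939 in beta cells. Kcnq1, the Kv7.1 channel, was at 4.35 CP10K in endothelial cells (303 counts, 3.88 to 4.87) and 5.05 in ductal cells (26 counts, 3.30 to 7.41) against 0.384 in delta cells, and its locus also holds the antisense Kcnq1ot1. Kcnq5 was at 2.46 CP10K in the columns labelled neuron (44 counts, 1.78 to 3.30), which their summed markers did not set apart, against 0.104 in delta cells. Kcnk16 was at 2.12 CP10K in PP cells (99 counts, 1.73 to 2.59) against 1.01 in alpha cells.

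The first comparison asked what forskolin did to these genes in beta cells. In WT islets 5 of 24 members were higher with FSK than in CON, where 7.52% of all kept genes were, and 8 were lower, where 20.1% of all were; the median log2 ratio was -0.25 for the members and -0.17 for all kept genes. In mutant islets 10 of 24 were higher (26.2% of all genes) and 5 lower (24.2% of all), with medians of 0.26 and 0.04. The genotypes have their own untreated columns, so these ratios share no column, although every sublibrary held nuclei of all 6 conditions. In both, 5 members were higher, Kcnb2, Kcnh1, Kcnj6, Kcnma1 and Kcnn2, where 6.3% of all kept genes were, and 5 were lower in both, among them Kcnh2, Kcnk12, Kcnk16 and Kcnu1, where 12.6% of all were. Kcnk12 was named after its values were seen. The direction was shared by 17 of 24 members, 70.8%, and by 72.1% of all kept genes.

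Kcnb2 was at 6.86, 16.2 and 4.23 CP10K in WT CON, FSK and Ex-4, and at 3.50, 13.6 and 3.66 in the same conditions of the mutant. Both FSK columns lay above the 4 others, and the FSK to CON ratio was 2.36 in WT (2.24 to 2.49) and 3.89 in the mutant (3.58 to 4.23). Kcnj6, which codes for GIRK2, was at 1.66, 5.59 and 1.19 CP10K in WT CON, FSK and Ex-4 and at 1.15, 4.33 and 1.04 in the mutant. Its ratio of 3.37 in WT (3.05 to 3.73) was the largest among the members there, and it was 3.76 in the mutant (3.25 to 4.37).

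Kcnma1, the pore of BK channels, was at 18.1, 29.2 and 11.7 CP10K in WT CON, FSK and Ex-4 and at 9.49, 30.7 and 9.84 in the mutant. The FSK levels of the genotypes were close, while the untreated level was lower in the mutant, and the ratios were 1.62 (1.56 to 1.67) and 3.24 (3.07 to 3.41). Kcnh1 was at 2.27, 5.08 and 1.12 CP10K in WT and 1.18, 5.5 and 0.987 in the mutant, with ratios of 2.24 (2.04 to 2.45) and 4.64 (4.03 to 5.37). Kcnn2, the SK2 calcium-activated channel, was at 0.584, 1.76 and 0.305 CP10K in WT and 0.275, 1.06 and 0.334 in the mutant, with ratios of 3.02 (2.54 to 3.60) and 3.85 (2.85 to 5.28). For all of these genes the 2 FSK columns were the highest of the 6.

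**Figure D2:**
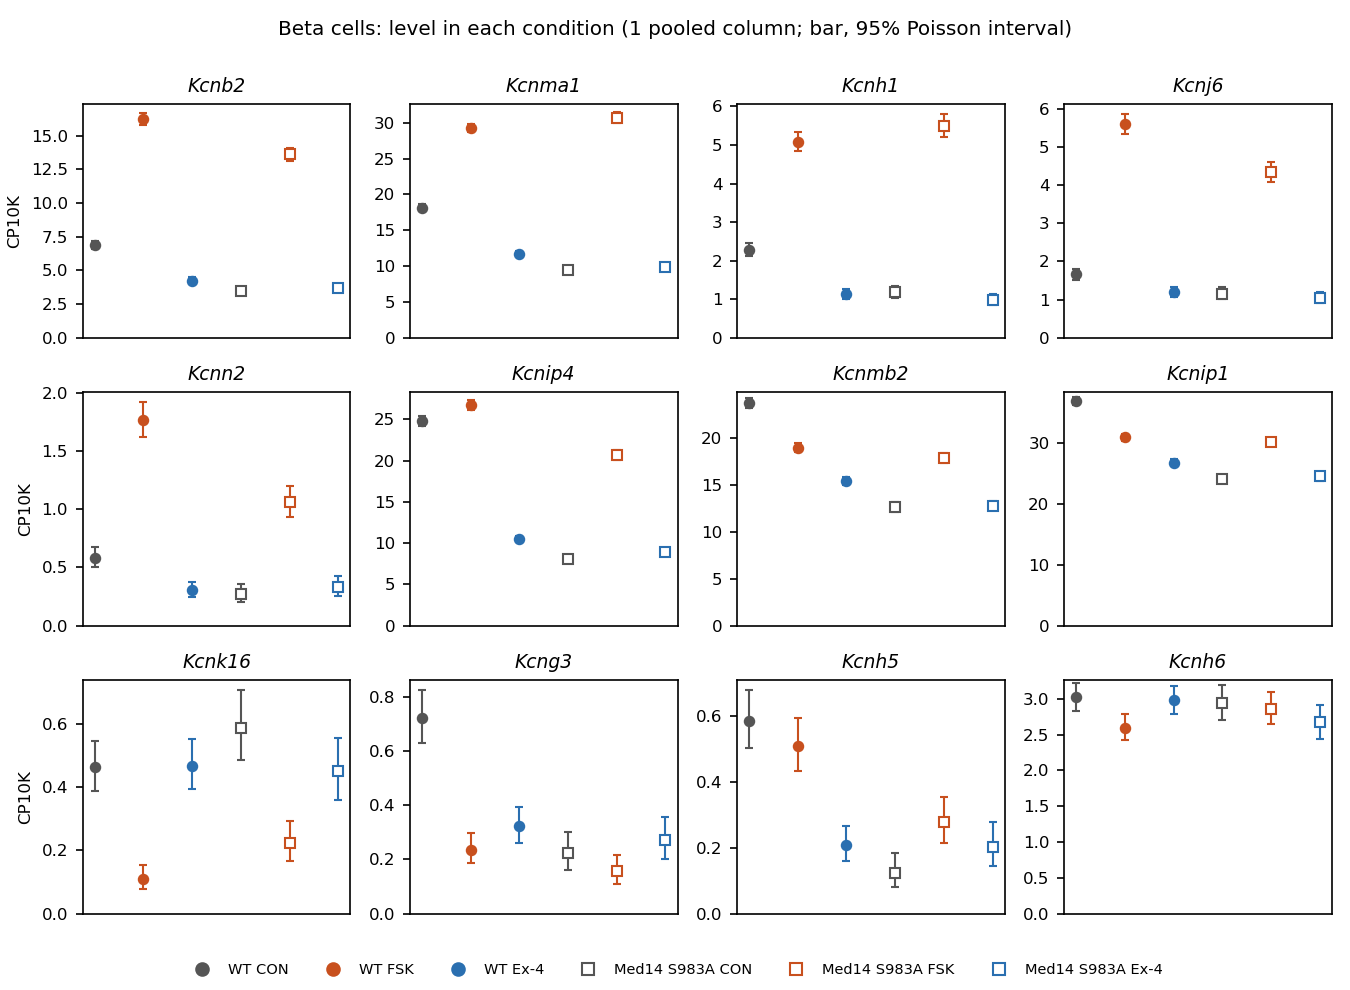
Levels of 12 members in beta cells (CP10K, linear axes from 0), 1 point per condition with its 95% Poisson interval; filled circles are WT and open squares Med14 S983A. In the first 5 panels both FSK points are the highest of the 6, and in the Kcnk16 panel they are the lowest.

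Among members that were lower with FSK, Kcnk16 was at 0.461, 0.110 and 0.466 CP10K in WT CON, FSK and Ex-4, and at 0.587, 0.221 and 0.449 in the mutant. Only the FSK columns were low, by 4.20-fold in WT (2.87 to 6.30) and 2.65-fold in the mutant (1.89 to 3.77). Kcnh2, the ERG1 channel of cardiac repolarization, was at 0.501, 0.259 and 0.802 CP10K in WT and 0.706, 0.391 and 0.658 in the mutant, with FSK levels 1.94-fold (1.47 to 2.58) and 1.81-fold lower (1.37 to 2.39). Kcnu1, best known as the sperm channel SLO3, was at 0.428 and 0.187 CP10K in WT CON and FSK and at 0.421 and 0.213 in the mutant. Kcnk12 was 1.85-fold (1.45 to 2.38) and 1.74-fold lower (1.26 to 2.42).

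Kcng3 had a pattern of its own. It was at 0.724, 0.236 and 0.322 CP10K in WT CON, FSK and Ex-4, and at 0.223, 0.156 and 0.272 in the mutant. WT CON was the high column and its interval lay apart from those of the other 5. FSK was 3.07-fold lower in WT (2.34 to 4.06), while the log2 ratio in the mutant, -0.51, missed the threshold.

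Some members showed no difference past 1.5-fold with FSK in either genotype, including genes with many counts. Kcnh6 stayed between 2.60 and 3.02 CP10K over the 6 beta columns. Kcnip1 was at 36.9 CP10K in WT CON and 30.9 in WT FSK and at 24.1 and 30.2 in the mutant, with log2 ratios of -0.26 and 0.33.

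The median log2 ratio with FSK differed by gene length. In the mutant it was 1.42 for the 14 members of at least 100 kb and -0.66 for the 10 shorter ones, against 0.58 and -0.16 for all kept genes split in the same way. In WT it was -0.15 and -0.84, against 0.02 and -0.24. The 5 members that were higher in both genotypes span 252.7 to 725 kb, with Kcnma1 the longest, and the 5 that were lower span 7.82 to 88.3 kb. After the trend on gene length across all genes was removed, 6 members were higher and 7 lower in WT, where 11.8% and 10.0% of all genes were. In the mutant 8 were higher and 5 lower, where 21.0% and 19.9% of all genes were. Kcnb2, Kcnh1, Kcnj6, Kcnma1 and Kcnn2 kept log2 ratios of at least 0.67 in WT and 0.82 in the mutant, both of them those of Kcnma1.

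Forskolin acts through cAMP and the CREB family, whose binding element is TGACGTCA, so these letters were looked for in RefSeq promoter windows of 250 bases before to 50 after the annotated start. Windows were found for 43 of the 59 members, 63 in all. The full element occurred in 0 of the 63 windows and in 1.79% of 32851 windows of all genes. Its core TGACG, on either strand and counted also within the full element, occurred in 20.6% of the members' windows and in 20.8% of all. Members kept in beta cells had 24 windows, for 17 genes. Of these windows 5 had the core, 20.8%, against 20.8% of all. These 5 stretches are shown because they include genes that were higher (Kcnj6), lower (Kcng3) and level (Kcnh6) with FSK. The core is in capitals within its flanking bases, as TGACG or, where it lies on the opposite strand, as CGTCA, printed in the direction of the gene, and each parent window matched the GRCm39 genome at 1 place.
Kcnj6: gcggctttcaTGACGtctccctg
Kcng3: gggcgcacggCGTCAcgaggcgggg
Kcnh5: gcggtagcagCGTCAggtggctgct
Kcnh6: gccccaggacTGACGgagacgccag
Kcnh8: ccgcccctgcCGTCAtcacgctcct
The Kcnj6 stretch lies at chr16:94798506-94798528 in an exon, its core at position 38 of the transcript. The Kcng3 stretch lies at chr17:83939518-83939542, with its core at position -208 from the RefSeq start, outside Kcng3 exons but overlapping an exon of Gm65251. The core lay at position -58 for Kcnh5 (chr12:75224150-75224174) and at -4 for Kcnh6 (chr11:105898960-105898984) and Kcnh8 (chr17:52909723-52909747), and each stretch overlapped an annotated exon of its gene. Kcnh6 and Kcnh8 lie on the plus strand and the other 3 on the minus strand. A match to these letters is a description and not a binding site.

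In alpha cells FSK gave a different set. In WT 1 of 14 members was higher (11.5% of all kept genes) and 5 were lower (9.6% of all), with medians of -0.13 for the members and 0.01 for all kept genes. In the mutant 4 were higher (22.7% of all) and 1 was lower (10.3% of all), with medians of 0.20 and 0.08. Setting the median of all genes to 0 changed this split to 4 and 2 (19.4% and 13.9% of all). No member was called the same way in both genotypes, where 5.12% of all genes were higher in both and 1.89% lower in both. The direction was shared by 6 of 14 members, 42.9%, and by 50.3% of all kept genes.

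In alpha cells Kcnj3 was at 5.80, 2.15 and 1.09 CP10K in WT CON, FSK and Ex-4, and at 0.716, 1.49 and 0.693 in the mutant. WT CON was the highest of the 6, and FSK was 2.69-fold lower than CON in WT (2.01 to 3.65) and 2.08-fold higher in the mutant (1.51 to 2.90). Kcnip3 was at 2.81, 2.71 and 1.46 CP10K in WT and 1.28, 3.38 and 1.13 in the mutant, where FSK was 2.64-fold higher (2.09 to 3.34). Kcnk3 was at 3.12, 1.71 and 1.57 CP10K in WT and 1.80, 1.81 and 1.27 in the mutant, and was 1.83-fold lower with FSK in WT (1.30 to 2.62). Kcnn3, the SK3 channel, was 1.90-fold lower with FSK in WT (1.23 to 3.04), at 1.98 against 1.04 CP10K. Kcnip1 was 1.5-fold lower with FSK in the mutant (1.24 to 1.82), at 2.34 against 3.52 CP10K.

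In delta cells 2 of 12 members were higher with FSK in WT (16.7% of all kept genes) and 4 were lower (15.4% of all), with medians of -0.26 for the members and 0.03 for all. In the mutant 6 were higher (31.5% of all) and 1 was lower (16.4% of all), with medians of 0.62 and 0.20. With the median of all genes set to 0, 5 were higher (23.8% of all) and 2 lower (23.4% of all). Kcnj6 and Kcnn2 were higher in both genotypes, where 12.6% of all genes were, and none of the 12 was lower in both, where 7.6% of all were. Kcnn2 passed the 300-count filter only with its FSK columns, so its place in this count depends on them. The direction was shared by 10 of 12 members, 83.3%, and by 71.1% of all kept genes.

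Kcnj6 was at 3.20, 5.33 and 2.13 CP10K in WT CON, FSK and Ex-4 of delta cells and at 2.10, 4.70 and 1.52 in the mutant, with FSK ratios of 1.67 (1.33 to 2.10) and 2.24 (1.80 to 2.79). Kcnn2 was at 1.13, 2.27 and 0.787 CP10K in WT and 0.459, 1.77 and 0.561 in the mutant, with ratios of 2.01 (1.38 to 2.96) and 3.86 (2.5 to 6.17). For these genes, the FSK columns were the high ones in delta as in beta cells. Kcnn2 had 341 counts over the 6 delta columns, near the filter of 300, and was kept through the FSK columns where it is high. Kcnc2, one of the channels highest in delta cells, was at 12.9, 18.4 and 5.05 CP10K in WT and 2.93, 16.0 and 3.04 in the mutant, where FSK was 5.45-fold higher (4.62 to 6.46). Kcnd2 was at 24.0, 16.7 and 5.56 CP10K in WT and 4.04, 14.1 and 3.51 in the mutant, where FSK was 3.49-fold higher (3.01 to 4.05). In both genes WT CON and the 2 FSK columns were high and the 3 others low.

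Kcnb2 differed between cell types in WT. It was 2.36-fold higher with FSK in beta cells and 1.67-fold lower in alpha cells (1.36 to 2.07), at 4.68 against 7.82 CP10K, and 2.32-fold lower in delta cells (2.04 to 2.64), at 8.58 against 19.9 CP10K. In the mutant the log2 ratios were 1.96, 0.34 and -0.25 in beta, alpha and delta cells. Kcnip4 was 2.31-fold lower with FSK in WT delta cells (1.91 to 2.80), at 3.91 against 9.02 CP10K, and 1.59-fold higher in the mutant (1.34 to 1.89), at 5.94 against 3.74. These differences between cell types and genotypes were not tested.

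**Figure D3:**
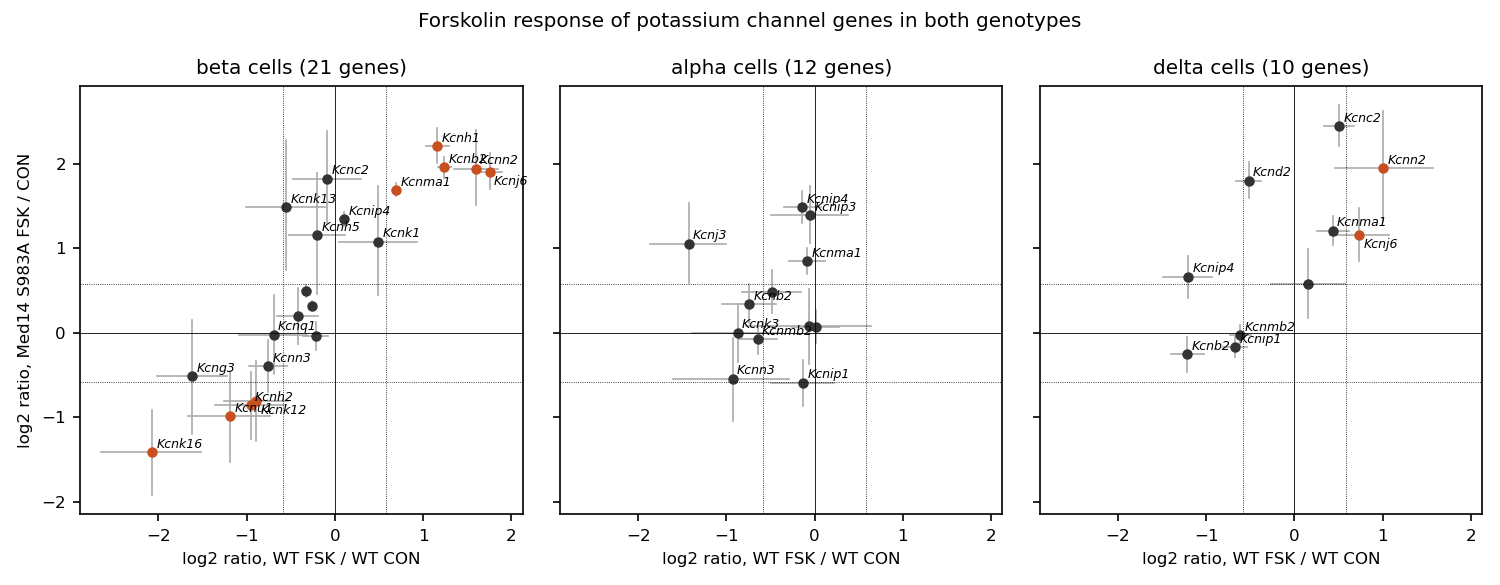
The log2 ratio of FSK to CON in WT (horizontal) and in Med14 S983A (vertical) for the kept members of each cell type that are described here, with 95% intervals in grey and dotted lines at 1.5-fold. Orange points were called the same way in both genotypes, and 9, 0 and 2 of them are drawn in beta, alpha and delta cells.

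The next comparison asked what Ex-4 did. In WT beta cells 2 of 24 members were higher than in CON (19.5% of all kept genes) and 11 were lower (15% of all), with medians of -0.51 for the members and 0.02 for all. In mutant beta cells 1 was higher (1.54% of all) and none of the 24 was lower (1.92% of all), with medians of 0.02 and -0.04. The one call in the mutant, Kcnh5, had an interval that included 1 (ratio 1.63, 0.958 to 2.84). The direction was shared between genotypes by 6 of 24 members, 25.0%, and by 45.5% of all kept genes.

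The members lower with Ex-4 in WT beta cells included the BK pore and its auxiliary subunit, the Kv4 partner Kcnip4, ether-a-go-go channels and Kv2 subunits. Kcnip4 was at 24.8, 26.7 and 10.5 CP10K in WT CON, FSK and Ex-4, and at 8.09, 20.6 and 8.88 in the mutant. The columns fell into a high set of WT CON and the 2 FSK columns and a low set of the others, and Ex-4 was 2.36-fold lower than CON in WT (2.27 to 2.46). Kcnk13 was at 0.342 CP10K in WT CON and 0.104 in WT Ex-4, 3.29-fold lower (2.18 to 5.08). Its 317 counts over the 6 beta columns lay just above the filter of 300, and WT CON was its highest column. It was thus kept only through the column it was compared with. Kcnh5 was at 0.588, 0.511 and 0.208 CP10K in WT CON, FSK and Ex-4 and at 0.125, 0.278 and 0.204 in the mutant, and was 2.83-fold lower with Ex-4 in WT (2.10 to 3.84).

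Kcnmb2 was at 23.7, 18.9 and 15.4 CP10K in WT and 12.6, 17.9 and 12.8 in the mutant, 1.54-fold lower with Ex-4 in WT (1.48 to 1.60). The ratio was the same size for Kcnma1, 1.54-fold lower (1.48 to 1.61), but its log2 ratio turned to 0.20 once the gene length trend was removed. Kcnb2 was 1.62-fold (1.51 to 1.74), Kcnh1 2.02-fold (1.77 to 2.31), Kcng3 2.25-fold (1.76 to 2.89) and Kcnn2 1.91-fold lower (1.48 to 2.49). Kcnh2, a short gene, was 1.60-fold higher (1.30 to 1.97). Of the members higher with FSK in both genotypes, only Kcnj6 was not called lower with Ex-4 in WT, at 1.19 against 1.66 CP10K and a log2 ratio of -0.47.

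In WT alpha cells 1 of 14 members was higher with Ex-4 (18.5% of all kept genes) and 8 were lower (25.8% of all), with medians of -0.78 and -0.11. In mutant alpha cells none of the 14 was called, where 0.56% of all genes were higher and 1.08% lower, with medians of 0.06 and -0.04. Kcnj3 was 5.34-fold lower with Ex-4 in WT (3.91 to 7.41), Kcnip4 2.41-fold (2.07 to 2.82), at 5.25 against 12.7 CP10K, and Kcnj6 2.08-fold (1.67 to 2.61), at 2.79 against 5.82 CP10K. Kcnk3 was 1.99-fold (1.48 to 2.69) and Kcnip3 1.92-fold lower (1.41 to 2.64).

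In WT delta cells none of the 12 members was higher with Ex-4 (15.4% of all kept genes) and 6 were lower (23.6% of all), with medians of -0.57 and -0.11. With the median of all genes set to 0, 4 were lower (17.7% of all). In mutant delta cells none of the 12 was called, where 1.28% of all genes were higher and 1.9% lower, with medians of -0.09 and -0.05. Kcnd2 was 4.31-fold lower with Ex-4 in WT (3.74 to 5.0), Kcnc2 2.56-fold (2.18 to 3.02), Kcnip4 2.16-fold (1.80 to 2.61) and Kcnb2 2.04-fold (1.81 to 2.31), at 9.75 against 19.9 CP10K.

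The genotypes were then compared without treatment. In beta cells 1 of 24 members was higher in mutant CON than in WT CON (18.2% of all kept genes) and 14 were lower (26.9% of all), with medians of -0.69 and -0.14. In alpha cells none of the 14 was higher (18.1% of all) and 9 were lower (31.4% of all), with medians of -0.89 and -0.19. In delta cells none of the 12 was higher (16.6% of all) and 9 were lower (33.6% of all), with medians of -0.77 and -0.26. With the median of all genes set to 0, 1 was higher (23.9% of all) and 5 were lower (22.0% of all). This comparison and the WT Ex-4 comparison share the WT CON column, and both are given only side by side. The untreated comparison also shares WT CON with WT FSK, and mutant CON with the mutant FSK and Ex-4 comparisons. A low mutant CON value thus enters both a lower level in the mutant and a higher ratio with FSK there.

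In beta cells Kcnh5 was 4.71-fold lower in the mutant (3.07 to 7.55), Kcnk13 3.29-fold (2.03 to 5.61), Kcng3 3.24-fold (2.33 to 4.61) and Kcnip4 3.06-fold (2.90 to 3.24). Here too Kcnk13 was kept only through its WT CON column. Kcnb2, Kcnh1, Kcnma1 and Kcnmb2 were lower by 1.96-fold (1.80 to 2.14), 1.92-fold (1.65 to 2.24), 1.91-fold (1.81 to 2.01) and 1.88-fold (1.79 to 1.97). With the gene length trend removed the log2 ratio of Kcnma1 was 0.027.

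Kcnj3 in alpha cells had the largest fold among the members, 8.09-fold lower in mutant CON than in WT CON (6.06 to 11). Kcnip4 was 3.25-fold (2.82 to 3.74), Kcnb2 2.25-fold (1.91 to 2.64), Kcnip3 2.19-fold (1.67 to 2.88) and Kcnj6 2.15-fold lower (1.79 to 2.60) in alpha cells. In delta cells Kcnd2 was 5.93-fold (5.12 to 6.89), Kcnc2 4.42-fold (3.69 to 5.3), Kcnb2 2.75-fold (2.43 to 3.11) and Kcnn2 2.46-fold lower (1.47 to 4.20). Other channels highest in these cell types differed less, with Kcnk3 1.73-fold lower in alpha cells and Kcnh6 at 7.06 and 5.16 CP10K in the untreated WT and mutant alpha cells. Kcnh8 was 1.62-fold lower in delta cells (1.19 to 2.21), but its log2 ratio was 0.11 with the gene length trend removed.

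**Figure D4:**
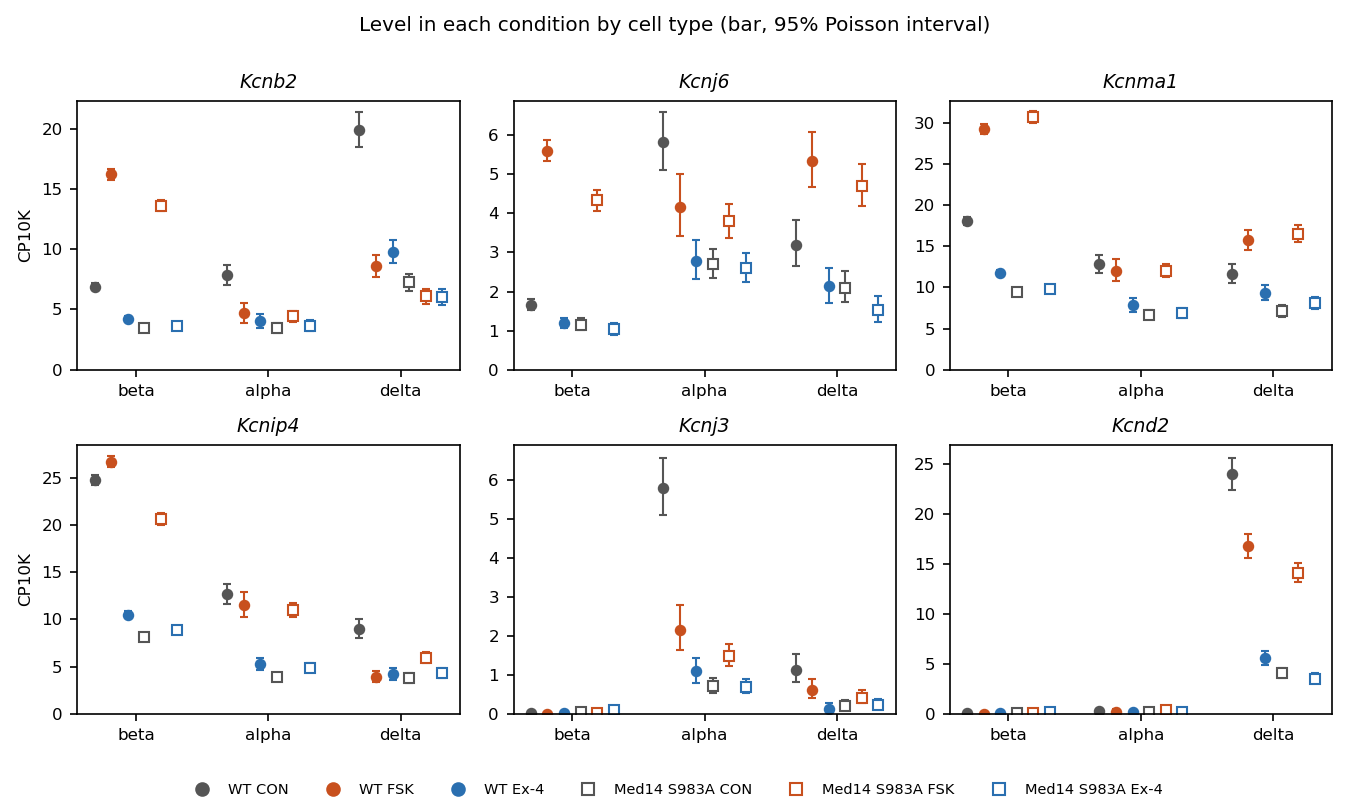
Levels of 6 members in beta, alpha and delta cells (CP10K, linear axes from 0), 1 point per condition with its 95% Poisson interval; filled circles are WT and open squares Med14 S983A. Kcnb2 is highest with FSK in beta cells and in WT CON in alpha and delta cells; Kcnd2 stays at or below 0.344 CP10K in beta and alpha cells, and Kcnj3 reaches at most 1.13 CP10K in beta and delta cells.

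Length moved with these results too. In the WT Ex-4 comparison of beta cells the median log2 ratio was -0.66 for the 14 members of at least 100 kb and -0.03 for the 10 shorter ones, against -0.45 and 0.20 for all kept genes split in the same way. In the untreated genotype comparison it was -0.94 and -0.07, against -0.65 and 0.04. Across the 24 members, Spearman's rho between length and log2 ratio was -0.60 and -0.61, against -0.64 and -0.58 across all kept genes, where genes share the same columns and are not independent. After removal of the length trend across all genes, 5 members were lower and none of the 24 was higher with Ex-4 in WT beta cells, where 10.6% of all genes were lower and 9.53% higher. In mutant CON 4 were lower and none of the 24 was higher, where 15.4% of all were lower and 15.2% higher, and the members' medians were -0.05 and -0.13. Kcng3, Kcnh5 and Kcnk13 stayed below the threshold in both, with log2 ratios from -0.94 to -1.56, although Kcnk13 was kept only through WT CON. In alpha cells 5 of 14 members were lower with Ex-4 (14.9% of all genes) and 1 was higher (13.5% of all), and 5 were lower in mutant CON (17.5% of all); Kcnj3 was at -2.03 and -2.52. In delta cells 2 of 12 were lower with Ex-4 (13.7% of all) and 3 in mutant CON (17.7% of all), where Kcnd2 was at -1.40 and -1.65 and Kcnc2 at -1.01 and -1.60.

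**Figure D5:**
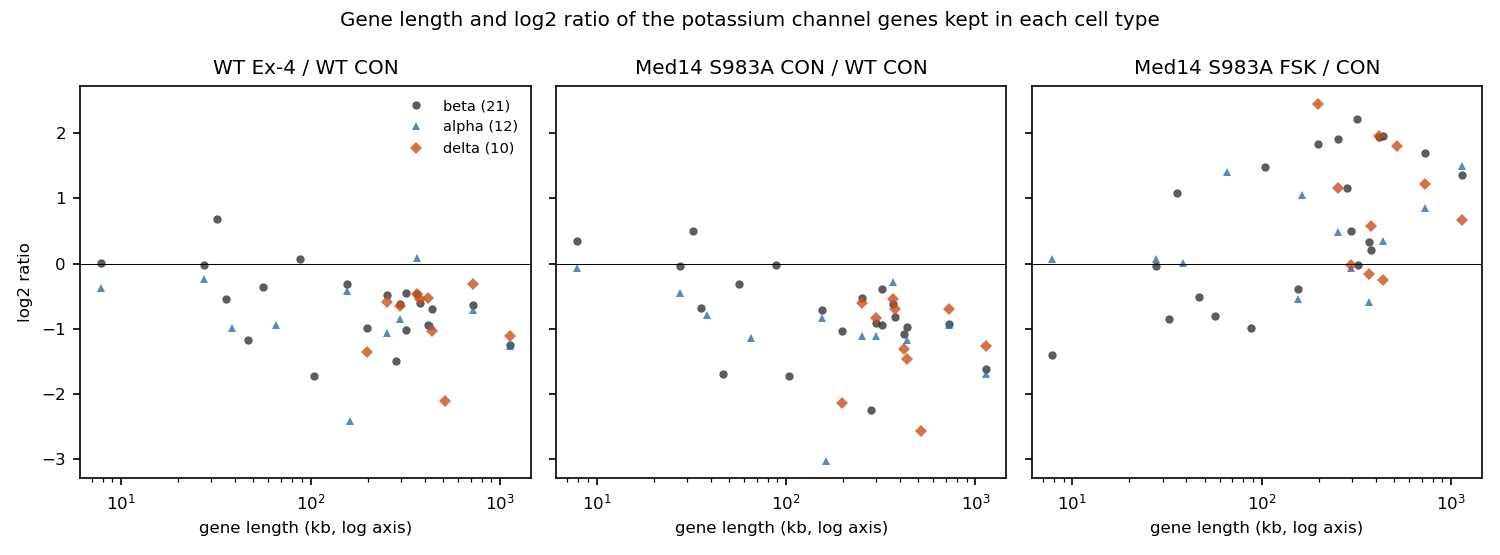
Gene length (kb, log axis) against the log2 ratio of the kept members described here in beta, alpha and delta cells for 3 comparisons. Long members lie lower in the first and second panels and higher in the third; the beta cell medians for members of at least 100 kb are -0.66, -0.94 and 1.42 in panel order.

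The genotypes were also compared under each treatment, a comparison added after the values were seen. With FSK in beta cells 3 members were higher in the mutant than in WT (8.36% of all kept genes) and 3 were lower (1.14% of all). Kcnk16 was 2.02-fold (1.28 to 3.21), Kcnc2 1.85-fold (1.44 to 2.38) and Kcnh2 1.51-fold higher (1.11 to 2.07). Kcnh5 was 1.84-fold (1.37 to 2.5), Kcnn2 1.67-fold (1.43 to 1.95) and Kcng3 1.51-fold lower, the last with an interval that included 1 (0.999 to 2.32). In alpha cells Kcnip1 was 1.66-fold lower (1.30 to 2.13), 1 of 14 members where 5.9% of all genes were lower and 4.26% higher, and this call was lost with the gene length trend removed. In delta cells Kcnip4 was 1.52-fold higher (1.26 to 1.84), 1 of 12 where 5.96% of all were higher and 5.14% lower.

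With Ex-4, none of the 24 members differed by 1.5-fold between the genotypes in beta cells, where 0.656% of all kept genes were higher in the mutant and 5.81% lower. In alpha cells Kcnj3 was 1.57-fold lower in the mutant (1.04 to 2.34), 1 of 14 members where 5.04% of all genes were lower and 1.12% higher, and this call was lost with the median of all genes set to 0 or the gene length trend removed. In delta cells 4 of 12 members were lower, among them Kcnb2, Kcnc2 and Kcnd2 by 1.58- to 1.66-fold, where 9.81% of all genes were lower and 1.85% higher. With the median of all genes set to 0 or the gene length trend removed, none of these 4 delta cell calls remained.

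Marker levels moved with condition beside these results. In alpha cells the 5 beta markers summed to 33.1 CP10K in WT CON and to 11.8 to 18.5 in the other 5 columns, and in delta cells to 11.5 in WT CON and 5.19 to 8.51 in the others. The 5 alpha markers in alpha cells ranged from 37.8 to 125 CP10K, highest in both FSK columns, and the 4 delta markers in delta cells from 4.36 to 9.73, also highest in both FSK columns. In beta cells alpha markers stayed between 1.05 and 4.34 CP10K and delta markers between 0.0194 and 0.324. Kcnj3 and Kcnd2, the alpha and delta channels with the largest folds, were at 0.0133 and 0.0631 CP10K in WT CON beta cells, far under their WT CON levels of 5.80 and 24.0 in alpha and delta cells. Among the 8 members lower with Ex-4 in WT alpha cells, levels pooled over conditions went both ways. Kcnb2, Kcnip4, Kcnma1 and Kcnmb2 were higher in beta than in alpha cells, with Kcnip4 at 17.6 CP10K against 7.48. Kcnip3, Kcnj3, Kcnj6 and Kcnk3 were lower in beta cells. The part of the marker shifts in the other results was not tested.

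Partner genes without the Kcn prefix were read alongside. Of 13 listed, 9 were in the table, and 5 were kept in beta cells and 3 in alpha and in delta cells. Dpp6 and Dpp10 code for auxiliary subunits of Kv4 channels. Dpp6 was at 18.7, 1.41 and 0.236 CP10K in delta, alpha and beta cells, the same order as Kcnd2. In delta cells it was at 41.9, 20.4 and 19.2 CP10K in WT CON, FSK and Ex-4, and at 12.9, 14.8 and 12.1 in the mutant. WT CON was the highest column, as it was for Kcnd2, but Dpp6 was not called higher with FSK in the mutant.

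Dpp10 had another order than Kcnd2, at 6.39, 4.38 and 1.94 CP10K in alpha, delta and beta cells. In alpha cells Dpp10 was at 21.0 CP10K in WT CON and between 3.50 and 5.78 in the other 5 columns. Abcc8, the sulfonylurea receptor of the ATP-sensitive channel, was not called in any of the 5 comparisons in the 3 cell types and stayed between 18.8 and 22.0 CP10K in beta cells. In WT beta cells 1 of 5 partners was higher with FSK (7.52% of all kept genes) and 2 were lower (20.1% of all), and in the mutant 2 were higher (26.2% of all) and 1 was lower (24.2% of all). With Ex-4 in WT beta cells 1 was higher (19.5% of all) and 3 were lower (15% of all), and in mutant CON 2 were lower (26.9% of all). Dpp6 and Dpp10 were lower with Ex-4 in WT alpha and delta cells, 2 of 3 partners each where 25.8% and 23.6% of all genes were. Both were also lower in mutant CON in alpha and delta cells, where 31.4% and 33.6% of all were.

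Several members share their locus with other annotated genes, and the sources used here do not say if reads were assigned by strand. Kcnip4 (chr5:48546844-49682249) overlaps 33 other annotated genes, Kcnip1 (chr11:33576285-33943152) 11, one of them Kcnmb1, and Kcnma1 (chr14:23339499-24064559) 7. Kcnb2 (chr1:15356816-15793974) overlaps 6, Kcnd2 (chr6:21214866-21729804) 4 and Kcnj3 (chr2:55325801-55488157) 1. Kcnk16 (chr14:20311444-20319267), Kcng3 (chr17:83892840-83939455) and Kcnn3 (chr3:89427460-89582439) overlap none. Coordinates are of GRCm39 in the GENCODE M39 annotation, the build the submitters name as mm39.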

How the data were processed

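Single nucleus RNA-seq was made from islets of 2 genotypes under 3 treatments, pooled in 8 sublibraries. Per the study's methods, the authors aligned reads to mm39 with split-pipe, filtered nuclei and annotated clusters in Seurat, and deposited 1 table of natural log values, ln(1 + CP10K), for 54 columns, each a pool of the nuclei of 1 condition and 1 cell type. The annotation release, the use of strand and whether pooled counts were corrected are not given in the sources used here. Whole counts were recovered from each column; 100% of values lay within 0.001 of a whole number.

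Ratios of CP10K were formed for 5 comparisons in 3 cell types and called at 1.5-fold, among genes with at least 300 counts over 6 columns; 2 further comparisons were added later. No test was possible, since there are no replicate columns. Exact Poisson and conditional binomial intervals (95%) cover counting error only. Named members were those of at least 1 CP10K in a main cell type, up to 3 with the largest and 3 with the smallest called ratio per comparison and type, up to 6 highest in a type, and the leading member of each other cell type. Some members and 1 partner gene count in the totals but are not reported here by name. Members, lists and thresholds were chosen with earlier results of these data known. Alternatives changed the log scale, filter, fold, centring, scaling (14 ribosomal RNA linked and mitochondrial genes removed) and gene length trend (lowess, span 0.3). Gene lengths and coordinates came from GENCODE M39, promoter windows from RefSeq (GRCm38.p6). Python 3.11.15, pandas 2.3.3, numpy 2.4.6, scipy 1.17.1, statsmodels 0.14.6 and matplotlib 3.10.9 were used.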

Additional observations from a re-analysis of the deposited data

Results flagged for a closer look

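Calls in opposite directions under the same contrast stood out for 4 members described here; each rests on 1 pooled column per condition and the differences were not tested. With FSK in WT, the log2 ratio of Kcnb2 in beta cells was 1.98 above that in alpha cells and 2.45 above that in delta cells, since it was higher in beta cells and lower in the others. Lower with FSK in WT but higher in the mutant were Kcnj3 in alpha cells with a WT minus mutant difference of -2.48 and Kcnip4 in delta cells with -1.87. With Ex-4 in beta cells, Kcnh5 was lower in WT and higher in the mutant, a difference of -2.21, although the interval of the mutant ratio included 1.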

How the results depend on the processing

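No paired analysis was possible because the 8 samples are sublibraries of one pool and the values are single pooled columns, and for the same reason no replicate could be left out. WT CON is 1 column that enters 3 of the 5 comparisons, and so is mutant CON. The counts of members highest in a cell type stayed within 1.5 times in 12 of 12 alternatives. Other counts moved by more. For the changed filter, fold, log scale and interval rule, the share over all genes is not given. Those counts are thus not set against a background and are not read as results about the members. "Mutant CON" stands for its comparison with WT CON, the other names for the treatment against CON of the same genotype.

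With the length trend removed, members higher numbered 0 for WT Ex-4 in beta (9.53% of all genes) and 0 for mutant CON in beta (15.2% of all). For WT FSK in alpha they numbered 0 (10.0% of all). Members lower numbered 5 for WT Ex-4 (10.6% of all) and 4 for mutant CON (15.4% of all) in beta. In alpha they numbered 2 for mutant FSK (12.3% of all), 5 for WT Ex-4 (14.9% of all) and 5 for mutant CON (17.5% of all). In delta they numbered 3 for mutant FSK (21.1% of all), 2 for WT Ex-4 (13.7% of all) and 3 for mutant CON (17.7% of all). That correction reversed 9 log2 ratios of named members: in beta WT Ex-4 Kcnh8 (0.050) and Kcnma1 (0.20), in beta mutant CON Kcnip1 (0.19) and Kcnma1 (0.027), in alpha WT Ex-4 Kcnma1 (0.16), in alpha mutant CON Kcnma1 (0.086) and in delta mutant CON Kcnh8 (0.11), Kcnj6 (0.035) and Kcnma1 (0.32).

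On the log2(CP10K + 1) scale, which by construction shrinks ratios of low genes, members higher numbered 6 for mutant FSK in beta, 0 for WT Ex-4, mutant Ex-4 and mutant CON in beta and 0 for WT FSK and WT Ex-4 in alpha; members lower numbered 0 for WT FSK, 1 for mutant FSK, 5 for WT Ex-4 and 5 for mutant CON in beta and 0 for mutant FSK in alpha and in delta. With the median of all genes set to 0, members higher in mutant CON were 2, 1 and 1 in beta, alpha and delta. Of all genes, 23.2%, 25.3% and 23.9% were higher there. Members lower were 2 for mutant FSK in alpha (13.9% of all) and 2 for mutant FSK in delta (23.4% of all). For mutant CON in delta 5 were lower (22.0% of all). With rescaling, members higher were 2 and 1 for mutant CON in beta and alpha (22.8% and 23.5% of all genes). Members lower were 2 for mutant FSK in alpha (15.7% of all) and 2 in delta (20.8% of all). Where intervals had to lie apart, the single calls of mutant Ex-4 in beta and WT Ex-4 in alpha, both higher, became 0.

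At a 2-fold threshold, members higher were 0 for WT Ex-4, mutant Ex-4 and mutant CON in beta, 0 for WT FSK and WT Ex-4 in alpha and 1 for WT FSK in delta; members lower were 3, 2, 5 and 6 for WT FSK, mutant FSK, WT Ex-4 and mutant CON in beta, 1, 0 and 3 for WT FSK, mutant FSK and WT Ex-4 in alpha, and 2, 0 and 5 for WT FSK, mutant FSK and mutant CON in delta. With at least 60 counts, which adds members, those higher were 4, 4 and 3 for WT Ex-4, mutant Ex-4 and mutant CON in beta, 2, 10, 2, 1 and 1 for WT FSK, mutant FSK, WT Ex-4, mutant Ex-4 and mutant CON in alpha, and 5 and 10 for WT and mutant FSK in delta; those lower were 14, 9 and 1 for WT FSK, mutant FSK and mutant Ex-4 in beta, 10, 2, 15, 2 and 18 in alpha and 11, 5, 11, 2 and 16 in delta, in the same order of comparisons. With no filter, those higher were 10, 16, 7, 9 and 9 in beta, 5, 17, 7, 8 and 6 in alpha and 7, 14, 7, 8 and 6 in delta; those lower were 19, 14 and 2 for WT FSK, mutant FSK and mutant Ex-4 in beta, 13, 5, 19, 7 and 21 in alpha and 15, 11, 13, 4 and 20 in delta. Low counts limit these last sets: a gene at 60 counts has about 10 per column.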
